A study of Mus musculus with 18 samples.

Results

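Colon epithelial cells of mice that lack the methyl-CpG-binding protein Mbd2 were compared with those of wild-type mice in the absence of any treatment. The comparison is between the 8 untreated arrays of the 18 in the data set, the 4 arrays labelled Naive_KO (arrays 13, 14, 15 and 16) against the 4 labelled Naive_WT (arrays 9, 10, 11 and 12). The members were taken by these group labels, and no measured value was used to choose them. The Naive_KO mice carry a constitutive deletion of Mbd2 (Mbd2-/-) in every cell type, so that a difference in the epithelium can also follow from the loss of Mbd2 in other cells. Both groups are on the C57BL/6 background, adult, age- and sex-matched, and received no dextran sulphate sodium (DSS). The labels do not give the sex or the exact age of each sample. A replicate can hold the cells of several mice, and a pool of animals can vary less than single animals do. The study's methods speak of separate experiments, and the labels do not tell which array belongs to which. The cells had been dissociated from the colon and sorted for EpCAM, a surface protein of epithelia, while cells with surface markers of leukocytes, T cells and macrophages were excluded. The other arrays hold 8 samples, after repeat arrays were averaged, of wild-type (DSS_WT) and Mbd2-/- (DSS_KO) mice that drank DSS, which damages the epithelium.

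Mbd2 binds DNA at methylated CpG dinucleotides and is a subunit of a form of the nucleosome remodelling and deacetylase (NuRD) complex, through which it is known as a repressor of methylated genes. Epithelial cells of the gut can present antigen: MHC class I molecules show peptides cut by the proteasome to CD8 T cells, and MHC class II molecules show peptides of ingested or secreted proteins to CD4 T cells. Interferon-gamma switches on the class II genes of epithelia through the transactivator Ciita, and raises the class I genes through Nlrc5 and Irf1.

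The probe for Mbd2 itself (ILMN_2676806, chromosome 18) was not detected on any array. Its log2 signal was 4.44 ± 0.14 (SD, n = 4) in Naive_WT and 4.50 ± 0.06 (SD, n = 4) in Naive_KO, both at background, and its lowest detection p-value over the 18 arrays was 0.151. The labelled genotype could therefore not be checked with this probe.

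Of 21938 probes tested, 144 were called in Naive_KO against Naive_WT with limma, at an adjusted p under 0.01 and an absolute log2 fold change of at least 1. Of these, 88 were higher in Naive_KO (0.401% of the tested probes) and 56 were lower (0.255%). The spread behind these tests was estimated over all 16 samples, those with DSS included, and a fit to the 8 untreated arrays alone called 39 probes, 28 of them higher and 11 lower. They belonged to 128 genes, 73 of them higher and 55 lower. In 143 of the 144 probes the 4 Naive_KO values lay outside the range of the 4 Naive_WT values, against 12.3% of all tested probes. The exception was the probe of Cldn4. With a single probe per gene, the brightest, 66 of 15459 genes were called higher (0.427%) and 47 lower (0.304%). The median log2 fold change of all these genes was -0.01, and 48.5% of them were above 0. Between 19063 and 20392 probes were detected per untreated array. The first principal component of the 8 arrays held 39.6% of the variance, and along it the Naive_WT arrays lay between -32.99 and -17.33 and the Naive_KO arrays between 3.25 and 49.56. Array 16 was the Naive_KO array nearest to the Naive_WT arrays and array 15 the farthest from them. Array 15 also had the lowest weight, 0.34, when limma estimated the precision of each array.

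**Figure D1:**
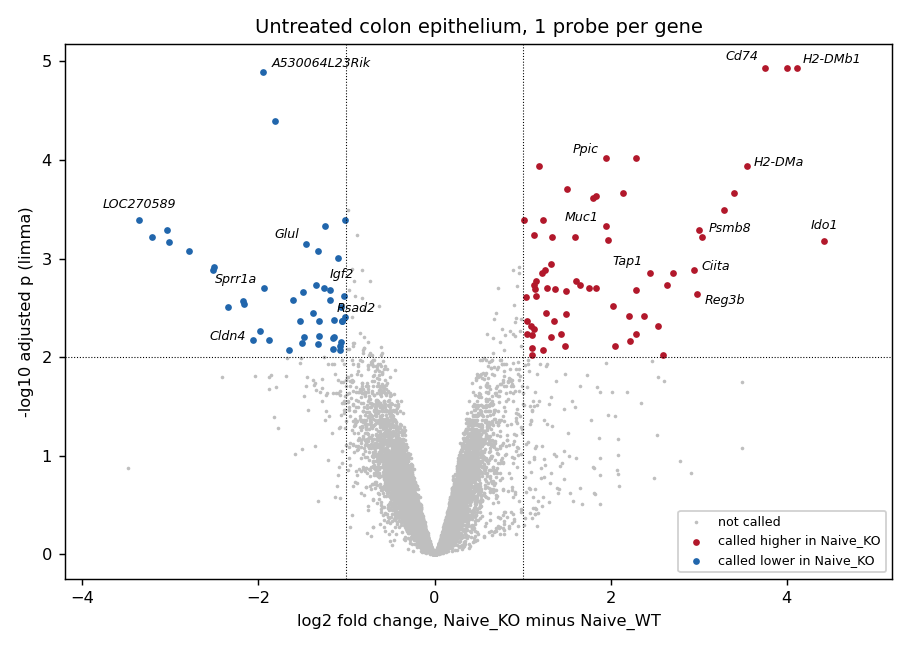
Log2 fold change (x axis, Naive_KO minus Naive_WT) against -log10 of the limma adjusted p (y axis) for the brightest tested probe of each of 15459 genes; dotted lines mark the thresholds. The 66 genes called higher include the class II genes at the upper right, and the 47 called lower include a group of locus-numbered transcripts at the left.

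The class II genes had the highest median log2 fold change of the 37 gene lists. Of 14 tested genes of class II presentation, 8 were called higher in Naive_KO and none lower (background 0.427% and 0.304%), and the median log2 fold change was 2.83 (2.61 with undetected genes taken at their lower bound). The called genes were both chains of I-A (H2-Aa, H2-Ab1), the beta chain of I-E (H2-Eb1), the invariant chain Cd74, which guides class II molecules to the endosome, the subunits of H2-DM (H2-DMa, H2-DMb1, H2-DMb2), which exchanges the peptide, and Ciita.

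The log2 signal of Cd74 was 10.09, 9.93, 10.18 and 9.03 on Naive_WT arrays 9 to 12, and 14.41, 13.07, 13.95 and 12.82 on Naive_KO arrays 13 to 16. The lowest Naive_KO value was therefore more than 2 log2 units above the highest Naive_WT value. The difference was 3.75 (SE 0.32, adjusted p = 1.18e-05, limma), and the other probes of Cd74 gave 3.85 and 3.69.

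H2-DMb1 had a low signal in Naive_WT, at 6.68, 6.24, 6.61 and 6.35, and stood at 11.68, 9.84, 11.13 and 9.68 in Naive_KO. Its log2 fold change of 4.11 (SE 0.34, adjusted p = 1.18e-05, limma) was the highest of the class II genes. H2-DMb2, a close relative whose transcript may share signal with H2-DMb1, differed by 4.00 (SE 0.34), while its dimmer probe differed by 0.34 and was not called. H2-DMa, the partner chain of both, differed by 3.54 (SE 0.39), and its other probe by 3.46.

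H2-Ab1 was at 9.67, 9.51, 10.13 and 8.75 in Naive_WT and at 13.85, 11.99, 13.65 and 11.71 in Naive_KO, which is a difference of 3.29 (SE 0.41, adjusted p = 0.000326, limma). Its 3 probes were all called, between 3.29 and 3.57, and a probe for a locus annotated as similar to a class II beta chain (LOC641240) differed by 3.40. H2-Eb1 differed by 3.00 (SE 0.39) and H2-Aa by 2.71 (SE 0.40).

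Ciita was not detected on any of the Naive_WT arrays and was detected on all 4 Naive_KO arrays, at 8.77, 6.69, 7.99 and 6.17. Against the lowest detectable signal of the Naive_WT arrays, Naive_KO was at least 5.67-fold higher (adjusted p = 0.00131, limma). Among the genes that were not called, H2-Eb2 had a log2 fold change of 1.25 (adjusted p = 0.0435), Ifi30, a thiol reductase of the endosome, -0.12, and the cathepsin Ctss -0.53. The cofactors Rfxank and Rfxap, which bind class II promoters at all times, differed by 0.36 and 0.13, neither of them called.

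The 4 Naive_KO arrays were not alike in this group. All 8 called class II genes were highest on array 13 and lowest on array 16. Over the 14 tested class II genes the mean log2 signal was 7.24 to 7.78 on the Naive_WT arrays, and 10.26, 9.16, 9.91 and 8.86 on arrays 13 to 16. The standard deviation of the called higher probes had a median of 0.49 in Naive_KO and 0.25 in Naive_WT, against 0.22 and 0.20 over all tested probes.

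The 150 bases before the annotated start of 4 called class II genes are shown because class II promoters carry well-known boxes at short distances from the start. The sequences are from RefSeq (GRCm38.p6) and are written 5′ to 3′ on the strand of the gene; capitals mark the X2 box (searched as TGACGTCA, which reads the same on both strands) and the CCAAT box (searched as ATTGG and its complement on the other strand).
H2-Aa (chr17:34287824-34287973, minus strand): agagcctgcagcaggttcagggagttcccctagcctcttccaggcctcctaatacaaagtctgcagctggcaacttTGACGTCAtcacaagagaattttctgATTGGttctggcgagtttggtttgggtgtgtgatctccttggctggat
H2-Eb1 (chr17:34305717-34305866, plus strand): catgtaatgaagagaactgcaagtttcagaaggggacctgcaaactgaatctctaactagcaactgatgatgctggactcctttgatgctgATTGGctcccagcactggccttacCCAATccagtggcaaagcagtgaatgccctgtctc
H2-DMb1 (chr17:34153041-34153190, plus strand): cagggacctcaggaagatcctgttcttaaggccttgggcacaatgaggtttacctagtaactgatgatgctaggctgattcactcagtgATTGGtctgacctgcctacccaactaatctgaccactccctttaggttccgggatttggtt
H2-DMb2 (chr17:34145099-34145248, plus strand): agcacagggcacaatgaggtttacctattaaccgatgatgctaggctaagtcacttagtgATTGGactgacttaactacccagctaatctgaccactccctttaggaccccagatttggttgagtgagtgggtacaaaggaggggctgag
The X2 box with these exact letters occurred in H2-Aa alone of the 4, beginning 74 bases before the start. It was in 1.55% of the 32851 promoters of the table, searched over the 250 bases before the start. The ATTGG box stood in all 4 windows, with its first base between 35 and 90 bases before the start, and in 33.8% of all promoters. The windows of H2-Eb1, H2-DMb1 and H2-DMb2 shared a run of 9 bases, GATGATGCT, upstream of the ATTGG box. It was picked as the longest run common to these windows, and H2-DMb1 and H2-DMb2 are close relatives. Of all promoters 0.222% hold it on either strand in the 250 bases before the start. CpG dinucleotides, the sites that Mbd2 binds when methylated, were few in these promoters: in the 250 bases before the start H2-Aa had 3, H2-Eb1 had 0, H2-DMb1 had 3 and H2-DMb2 had 2, against a median of 6 over all promoters. The listed promoters of H2-DMa, which is called as well, had 27 and 0. DNA methylation was not measured here.

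Of 17 tested class I genes and their activator, 5 were called higher and none lower, with a median log2 fold change of 0.96. These were H2-Q6, H2-Q7 and H2-Q8 of the Qa-2 region, H2-T23, which encodes Qa-1, and Nlrc5. The Qa-2 genes are near-identical, so that their probes may read one another's transcripts. These calls were less stable than those of class II: of 16 other processing settings, H2-Q8 was called under 8, H2-Q6 and H2-Q7 under 7 each and H2-T23 under 6, and Nlrc5 under 4 of 15.

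Nlrc5, the class I transactivator, was not detected on any Naive_WT array and lay at 8.20, 6.56, 7.04 and 5.34 in Naive_KO, at least 3.70-fold higher (adjusted p = 0.00586, limma). H2-Q8 differed by 2.54 (SE 0.45), with its other probe at 3.71, H2-Q6 by 2.05 (SE 0.39), H2-Q7 by 1.44 (SE 0.26) and H2-T23 by 1.10 (SE 0.20). The classical heavy chains H2-D1 and H2-K1 had log2 fold changes of 0.76 and 0.99 and were not called. B2m, the light chain that all class I molecules share, stood at 13.28, 13.16, 13.33 and 13.18 in Naive_WT and at 14.61, 13.96, 14.38 and 13.84 in Naive_KO. Its brightest probe differed by 0.96, just under the threshold, and its other probe by 1.00 and was called (adjusted p = 0.00127, limma). H2-K2 likewise was called at its dimmer probe, 1.79, but not at its brighter probe, 0.99.

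Of 12 tested genes that cut and load class I peptides, 3 were called higher, and all 12 had log2 fold changes above 0, with a median of 0.99. Psmb8, a catalytic subunit of the immunoproteasome, was at 8.53, 8.65, 8.70 and 8.90 in Naive_WT and at 12.45, 11.26, 12.71 and 10.51 in Naive_KO. The groups were separated by more than 1 log2 unit, and the difference was 3.04 (SE 0.41, adjusted p = 0.000603, limma). Psmb9, the other inducible subunit encoded beside it, differed by 2.21 (SE 0.38). Tap1, a chain of the peptide transporter in the reticulum membrane, differed by 2.44 (SE 0.36), and its partner Tap2 by 1.48 without a call (adjusted p = 0.0146). Tapbp and Psmb10 were each called only at their dimmer probe, at 1.46 and 1.01. The chaperones Pdia3 and Calr, which serve many other proteins too, had 0.32 and 0.23.

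Tap1 and Psmb9 are transcribed away from each other from a common stretch of 225 bases on chromosome 17, shown here because both genes were called. The sequence is on the plus strand of GRCm38.p6 (RefSeq starts), with the CCAAT box in capitals.
Tap1 and Psmb9 (chr17:34187331-34187555, plus strand): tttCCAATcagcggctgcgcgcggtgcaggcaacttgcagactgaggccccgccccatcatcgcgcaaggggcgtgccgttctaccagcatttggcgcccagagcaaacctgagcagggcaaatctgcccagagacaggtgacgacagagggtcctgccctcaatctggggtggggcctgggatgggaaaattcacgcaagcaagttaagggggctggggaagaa
It held 12 CpG dinucleotides, and in it stood neither the interferon-gamma activated site (GAS, searched as TTCNNNGAA) nor the interferon-stimulated response element (ISRE, searched as GAAA, any 2 bases and GAAA again), both on either strand.

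Of 24 tested genes that interferon-gamma induces, 4 were called higher and none lower, and the median log2 fold change was 0.85. Ido1, which degrades tryptophan, had the largest rise of any named gene: it was at 5.15, 4.39, 4.81 and 4.33 in Naive_WT, where 1 array detected it, and at 11.07, 8.01, 8.82 and 8.50 in Naive_KO. The difference was 4.43 (SE 0.60, adjusted p = 0.000665, limma).

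The immunity-related GTPases Ifi47 and Igtp, which attack the vacuoles of intracellular pathogens, differed by 2.64 (SE 0.41) and 2.59 (SE 0.51). Igtp ranged from 8.22 on array 16 to 11.23 on array 13, and its adjusted p of 0.0096 (limma) was close to the threshold. Parp14 was called at 1.23 (SE 0.24). Irf1 was called at a dimmer probe, 1.12, and reached 0.83 at its brightest. The guanylate-binding protein Gbp2 (1.97), Ubd (2.02) and Irgm2 (1.94) had adjusted p between 0.0115 and 0.0387 and were not called. Irgm1, the brightest gene of this list, had a log2 fold change of -0.18 at its brightest probe and of 1.04 at another that all 8 arrays detected (adjusted p = 0.0547), and neither was called.

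The promoters of Igtp and B2m are shown as examples that hold, within 150 bases of the start, motifs that interferon-activated factors are known to bind. H2-T23 (ISRE) and Psmb8, Irf1 and Reg3b (GAS) hold one there too, as does Rsad2 (ISRE), which was called lower. Capitals mark GAS, ISRE and ATTGG; both sequences are from RefSeq (GRCm38.p6) on the plus strand.
Igtp (chr11:58199406-58199555): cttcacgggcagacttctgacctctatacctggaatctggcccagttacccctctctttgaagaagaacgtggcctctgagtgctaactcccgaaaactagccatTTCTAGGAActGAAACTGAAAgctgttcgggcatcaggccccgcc
B2m (chr2:122147537-122147686): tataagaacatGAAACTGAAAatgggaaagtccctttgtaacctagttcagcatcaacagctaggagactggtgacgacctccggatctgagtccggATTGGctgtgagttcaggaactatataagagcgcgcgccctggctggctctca
GAS was in 7.02% and ISRE in 2.98% of all 32851 promoters. Among 23 promoters listed for 20 genes of the lists called higher, 5 held GAS, 3 held ISRE, 1 held the exact X2 box and 13 held ATTGG. Their median CpG count was 7.

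Genes of the type I interferon response had a smaller median. Of 24 tested, 2 were called higher and 1 lower, with a median log2 fold change of 0.54. Irf7, the factor that amplifies interferon production, was at 7.79, 7.84, 7.91 and 7.61 in Naive_WT and at 8.98, 8.84, 9.09 and 9.60 in Naive_KO, so that it differed by 1.34 (SE 0.18, adjusted p = 0.000603, limma). Unlike the class II genes it was highest on array 16. Irf9, a DNA-binding subunit of the complex that acts downstream of the type I receptor, differed by 1.15 (SE 0.18).

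Rsad2, the antiviral enzyme viperin, went the other way. It was at 9.22, 9.42, 9.01 and 8.67 in Naive_WT and at 7.69, 7.72, 7.66 and 8.48 in Naive_KO, so that array 16 stood close to the lowest Naive_WT value. It fell by 1.19 on the log2 scale (SE 0.19, adjusted p = 0.00266, limma). Oasl2 (1.84), Isg15 (0.98), Ifit3 (0.74) and Mx1 (0.45) were not called. None of 10 tested genes of interferon receptors, their kinases and ligands was called, with log2 fold changes from -0.40 to 0.36 and a median of -0.01: the receptor chains Ifngr1 and Ifngr2 had 0.04 and -0.40. The probe for Ifng itself was near background, with a difference of 0.36.

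**Figure D2:**
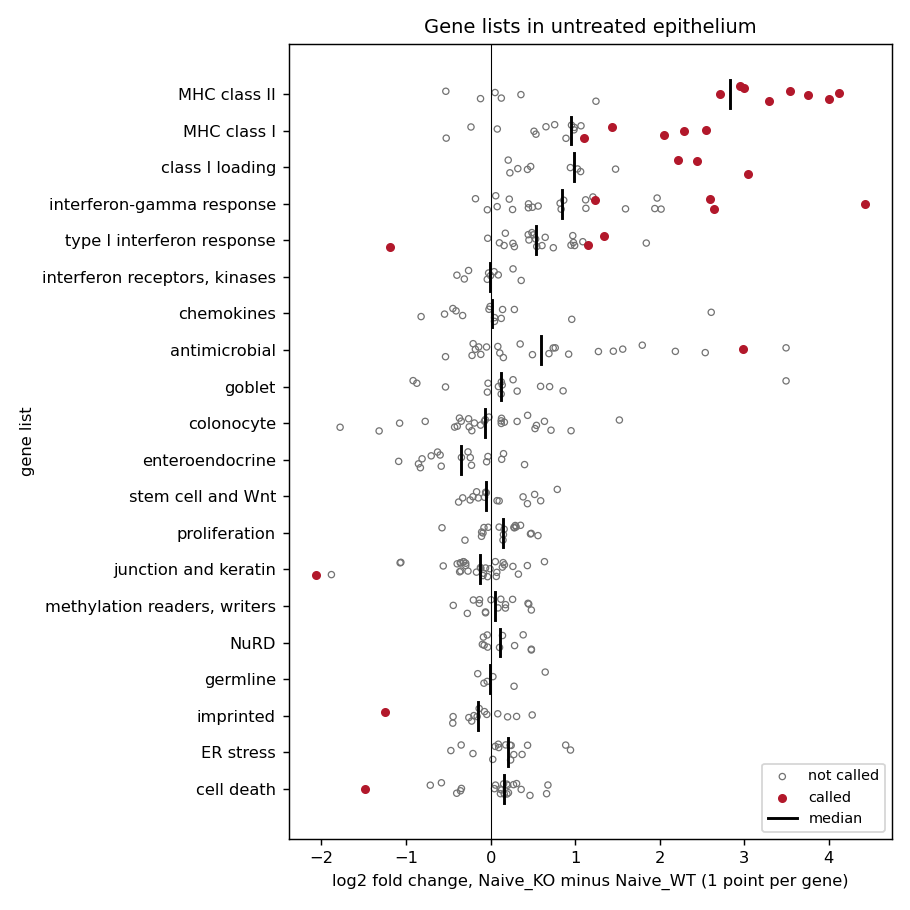
Log2 fold change of every tested gene (1 point each) in 20 gene lists, with called genes filled and the list median as a bar. The median is 2.83 for class II, 0.96 for class I, 0.99 for loading, 0.85 for the interferon-gamma response and 0.54 for the type I response, and lies between -0.35 and 0.59 for the other lists shown.

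Of 24 antimicrobial genes 1 was called. Reg3b, a lectin secreted by the epithelium that kills or binds bacteria, was at 9.82, 9.51, 11.92 and 9.36 in Naive_WT and at 14.45, 12.67, 13.08 and 12.35 in Naive_KO. The groups did not overlap, though Naive_WT array 11 came close to the lowest Naive_KO array, and the difference was 2.99 (SE 0.48, adjusted p = 0.00229, limma). Its other probe gave 2.16 (adjusted p = 0.0529). The related Reg3g (2.54), the goblet cell product Retnlb (2.19) and the ribonuclease Ang4 (3.49) had large differences with adjusted p of 0.0159, 0.0227 and 0.084, and were not called. Zg16 and Lypd8, the brightest genes of the list beside Retnlb, had -0.53 and -0.21. The chemokine Cxcl9, another interferon-gamma target, had 2.61 (adjusted p = 0.0175), and no chemokine of 14 was called.

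Among genes outside the lists, the following were chosen after their values were seen. The cell-surface mucin Muc1 was called at all 4 of its probes, between 1.87 and 2.09. At its brightest probe it was at 7.25, 6.88, 6.36 and 7.08 in Naive_WT and at 9.13, 8.77, 8.46 and 8.99 in Naive_KO (adjusted p = 0.00047, limma). The Naive_KO arrays were closer to each other here than in the class II genes. Ppic, a cyclophilin, was as even: 8.61, 8.33, 9.22 and 8.53 against 10.45, 10.71, 10.40 and 10.92, a difference of 1.95 (SE 0.20, adjusted p = 9.54e-05, limma), with array 16 the highest. Lpo, a secreted peroxidase, rose by 1.97 (SE 0.27).

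Fabp6, the bile acid-binding protein of the ileum, was at 8.03 ± 0.40 in Naive_WT and 10.25 ± 1.10 in Naive_KO (SD, n = 4 each), with array 13 at 11.86 and the others between 9.39 and 9.88. It differed by 2.22 (SE 0.41, adjusted p = 0.00688, limma). Piwil4, a PIWI protein of the germ line, rose by 1.32 (SE 0.24), from 7.04 ± 0.24 to 8.36 ± 0.43 (SD, n = 4 each). Apobr, Art2b and Btnl2 were not detected on any Naive_WT array and on all 4 Naive_KO arrays, and were at least 3.63-fold, 4.38-fold and 2.04-fold higher. Complement C2, encoded within the MHC region (2.29), Ly6a (1.61), Cd177 (1.36), the adenosine receptor Adora2b (1.28), Apoc1 (1.66) and a locus similar to malic enzyme (LOC677317, 2.02) were called too.

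**Figure D3:**
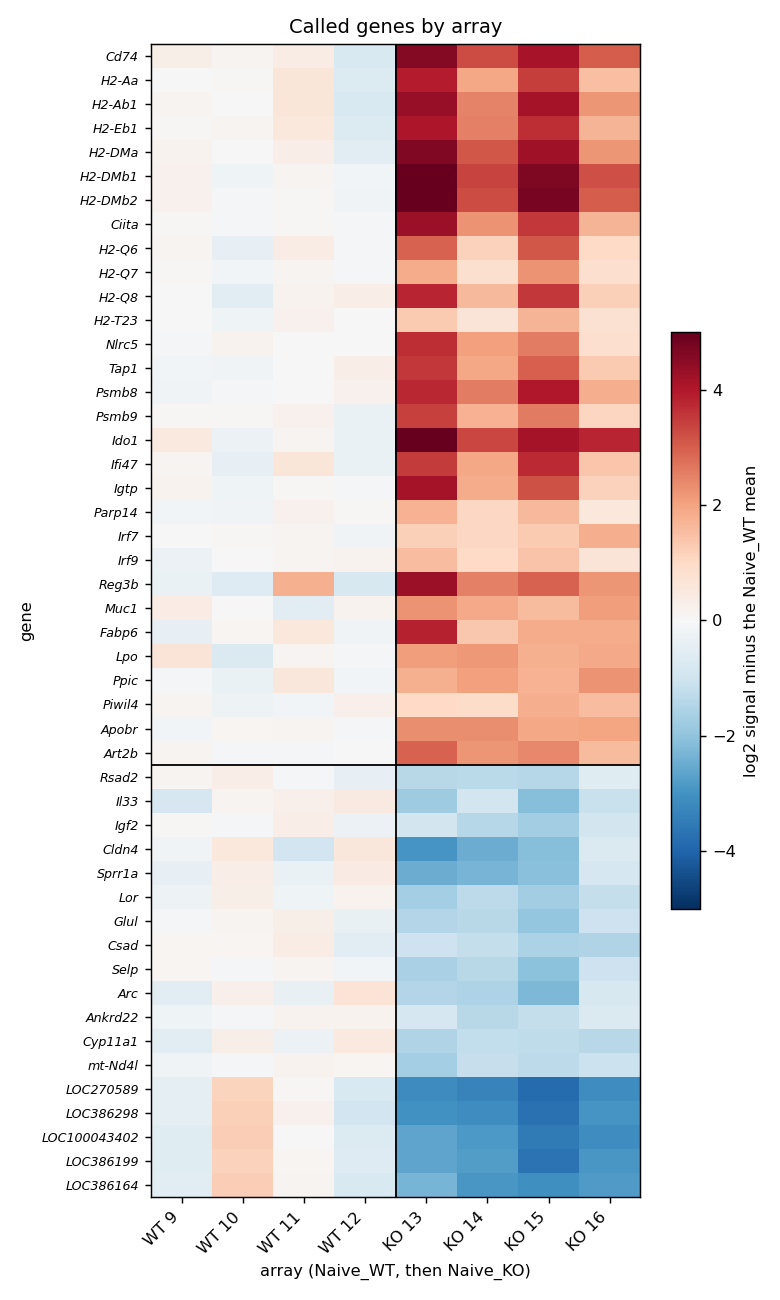
Log2 signal of 48 called genes (rows) on the 8 untreated arrays (columns), as the difference from the Naive_WT mean of the gene. In the upper block, the class II, loading and most interferon rows are strongest on arrays 13 and 15 and palest on array 16, while Muc1, Lpo and Ppic are alike on all 4; in the lower block the locus-numbered rows are highest on Naive_WT array 10.

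The falls were led by transcripts without gene names. Of the 15 genes with the largest falls among those whose groups did not overlap, LOC270589, LOC386298, LOC100043402, LOC386199, LOC386164, LOC386288, LOC385923, LOC386144, LOC386268, LOC386330 and LOC280097 have only locus numbers, and F730003H07Rik, A530064L23Rik and C230075M21Rik only clone names. The remaining gene was Sprr1a. In all, 22 of the 55 genes called lower had no name beyond a locus or clone number, against 7 of the 73 called higher.

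LOC270589 was at 10.41, 11.98, 10.93 and 10.10 in Naive_WT and at 7.72, 7.50, 7.01 and 7.75 in Naive_KO. It fell by 3.36 on the log2 scale (SE 0.42, adjusted p = 0.000407, limma), the largest fall of a named gene. Several of these probes share runs of 20 or more identical bases, so that they cannot be counted as separate pieces of evidence. The run that most of the largest group has in common, shown to make this visible, is printed in capitals.
run shared by 4 probes: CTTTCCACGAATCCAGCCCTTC
run shared by LOC270589 and LOC386298: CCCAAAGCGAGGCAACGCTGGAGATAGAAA
The probes of LOC100043402, LOC386164, LOC386199, LOC386288 and LOC385923 are linked by runs of 20 or more identical bases, and 4 of the 5 hold the first run. All 5 were called, between -3.04 and -2.51. LOC386254, which shares a run of at least 20 bases with this pair, was near background and had -0.23. A further pair, LOC280097 and LOC386112, fell by 1.88 and 1.66. Counting probes linked in this way once, the 56 called lower probes made 49 sequence groups, and the 88 called higher made 87. On Naive_WT array 10, 11 of the locus-numbered transcripts named here were at their highest, and leaving that array out changed the number of probes called lower from 56 to 22, as did leaving out Naive_KO array 15. Of the 11 transcripts 9 were still called lower without array 10, 7 without array 15 and 5 in the fit to the 8 untreated arrays alone.

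A530064L23Rik varied little within the groups: it was at 7.28, 7.44, 7.37 and 7.65 in Naive_WT and at 5.65, 5.33, 5.54 and 5.41 in Naive_KO, a difference of -1.95 (SE 0.17, adjusted p = 1.29e-05, limma). C230075M21Rik fell by 1.81 (SE 0.18).

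Cldn4, a tight junction claudin, was at 12.18, 12.88, 11.40 and 12.92 in Naive_WT and at 9.39, 9.87, 10.23 and 11.62 in Naive_KO. It fell by 2.06 (SE 0.38, adjusted p = 0.00669, limma), but array 16 lay above Naive_WT array 11, so the groups overlapped. Sprr1a and Lor, both proteins of the cornified envelope of stratified epithelia, fell by 1.93 (SE 0.30) and 1.49 (SE 0.24); Lor was chosen after its values were seen. Of 33 tested junction and keratin genes Cldn4 was the only one called, and the median was -0.12. The brightest of the list, Krt8, Krt19 and Ctnna1, had -0.01, 0.26 and 0.07.

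Il33, an alarmin cytokine, was at 6.75, 7.74, 7.83 and 8.06 in Naive_WT and at 5.81, 6.67, 5.49 and 6.48 in Naive_KO. It fell by 1.49 (SE 0.27, adjusted p = 0.00621, limma) and was the only one of 23 cell death and alarmin genes called. The imprinted growth factor Igf2 fell by 1.25 (SE 0.20), from 7.80 ± 0.28 to 6.55 ± 0.40 (SD, n = 4 each), and was the only one called of 14 tested imprinted genes.

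Other called falls were chosen after their values were seen. Glul, glutamine synthetase, was at 8.39, 8.58, 8.73 and 8.09 against 6.98, 7.05, 6.50 and 7.42, a fall of 1.46 (SE 0.20, adjusted p = 0.000712, limma). Csad, an enzyme of taurine synthesis, fell by 1.33 (SE 0.19), and the probe of mt-Nd4l, a mitochondrially encoded subunit of respiratory complex I, by 1.31 (SE 0.23). Ankrd22 fell by 1.03 (SE 0.17). Selp, the adhesion molecule P-selectin of endothelium and platelets, fell by 1.53 (SE 0.27), the neuronal immediate-early gene Arc by 1.50 (SE 0.28) and the kallikrein Klk1b24 by 1.02 (SE 0.18). Cyp11a1, which starts steroid synthesis, was detected on all 4 Naive_WT arrays and on no Naive_KO array, and was at least 1.96-fold lower.

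The make-up of the epithelium, as far as list medians show it, had few called genes. None was called among 14 genes of epithelial identity (median 0.06), 15 goblet (0.13), 28 colonocyte (-0.07), 17 enteroendocrine (-0.35), 16 stem cell and Wnt (-0.06) or 19 proliferation genes (0.15), and the signs for epithelial identity, colonocyte and stem cell genes changed under other processing. Among their brightest members, Muc2 had 0.09, Spink4 0.13, Car1 -0.02, Guca2a -0.07, Gcg -0.23, Pyy -0.70, Sox9 -0.33 and Mcm4 0.28. Of the enteroendocrine genes 14 of 17 were below 0. In these bulk samples, fewer cells of a type and less RNA per cell cannot be told apart.

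None of 16 tested methylation readers and writers (median 0.05) and none of 11 NuRD subunits (median 0.11) was called. The closest relative of Mbd2, Mbd3, had 0.48 (adjusted p = 0.116), Dnmt1 -0.06, Uhrf1 0.18, Hdac2 -0.03 and Chd4 -0.04. A list of 26 genes known to be silenced by promoter methylation in the body held germline genes and Xist. Of these 25 were on the array and 6 passed the detection filter (Ddx4, Tdrd1, Tdrkh, Brdt, Piwil2 and Xist), and none was called, with log2 fold changes from -0.15 for Xist to 0.65 for Piwil2. Piwil4, which was called, is not in that list. Among 22 immediate-early and heat shock genes, which cell dissociation can induce, none was called, and the median was -0.03. At an adjusted p under 0.05 (limma) 2 of them were lower and 0 higher, and the lowest log2 fold change was -1.01. The immediate-early gene Arc, which was called lower, is not in that list. Fatty acid oxidation (19 tested), cytochrome P450 and conjugation (25) and endoplasmic reticulum stress genes (16) had no call either. Their medians were 0.05, -0.25 and 0.20. The cytochrome P450 gene Cyp11a1, which was called lower, is not in these lists. The 13 housekeeping genes had a median of -0.01.

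The sorted cells had the epithelial markers Krt8 (14.67 ± 0.07 in Naive_WT and 14.66 ± 0.04 in Naive_KO, SD, n = 4 each), Lgals4, Vil1, Cdx1 and Cdh1 at high log2 signals on all arrays. None of them was called, but Krt8 and Lgals4 were near the upper end of the signal range, where a difference can be compressed. Epcam had a modest signal, 7.45 ± 0.21 against 6.83 ± 0.29 (SD, n = 4 each; adjusted p = 0.0509, limma). Markers of other cells were present: Dcn of fibroblasts and Acta2 of smooth muscle were detected on all 8 arrays, at 11.38 ± 0.49 and 11.92 ± 0.40 in Naive_WT and 11.13 ± 0.16 and 11.43 ± 0.24 in Naive_KO. Over the lists, fibroblast means were 7.49 to 8.25 in Naive_WT and 7.49 to 7.96 in Naive_KO, smooth muscle means 8.63 to 9.32 and 8.33 to 8.81, and endothelial means 6.59 to 7.02 and 6.17 to 6.49. None of 20, 14 and 15 genes was called, with medians of -0.13, -0.46 and -0.45. The endothelial means did not overlap, and the part of this in the fall of Selp was not tested.

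Haematopoietic cells also express class II genes. Of their defining markers, Ptprc, Itgax, Cd8a and Gzmb were not detected on any of the 8 arrays. Cd3e was detected on 1 Naive_WT array and no Naive_KO array. The probes of Itgax, Cd8a and Gzmb were not detected on any DSS array either, so they do not show that such cells were absent. Further defining markers were detected on all 8 arrays, with log2 fold changes of 0.54 for Laptm5, 0.25 for Coro1a, 0.70 for C1qa and 0.67 for Csf1r (adjusted p = 0.0486, limma). Other leukocyte genes detected on all 8 were Vav1, with 0.79 (adjusted p = 0.0138, limma), and Lcp1, with 0.77 (adjusted p = 0.0179, limma). None of these genes was called. None of 9 tested pan-leukocyte (median 0.25), 14 myeloid (0.65), 14 T and NK (0.08), 7 B and plasma cell (0.44) or 5 neutrophil genes (0.09) was called. Of the T and NK genes 5 were detected on all 8 arrays and 5 on none. Of the neutrophil genes 1 was detected on all 8 and 2 on none. Genes at background cannot show a difference, which limits these medians. The mean of the leukocyte genes was 6.13 to 6.63 in Naive_WT and 7.23, 6.61, 6.74 and 6.22 on arrays 13 to 16, and that of the myeloid genes 6.04 to 6.77 and 7.32, 6.83, 6.88 and 6.37. Like the class II genes, both were highest on array 13 and lowest on array 16. On array 16 both means lay within the range of the Naive_WT arrays, and the class II mean was 8.86. Of the leukocyte genes 8 of 9 and of the myeloid genes 12 of 14 were above 0, and the part of these cells in the class II difference was not tested. The plasma cell gene Mzb1 had a difference of 1.09 (adjusted p = 0.144), with 8.36, 7.88 and 8.08 on arrays 13 to 15 and 6.14 on array 16. Xist, expressed in females, had a log2 fold change of -0.15, and the Y-linked Ddx3y and Uty had -0.82 (adjusted p = 0.0209) and 0.13 (adjusted p = 0.639), none of them called.

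**Figure D4:**
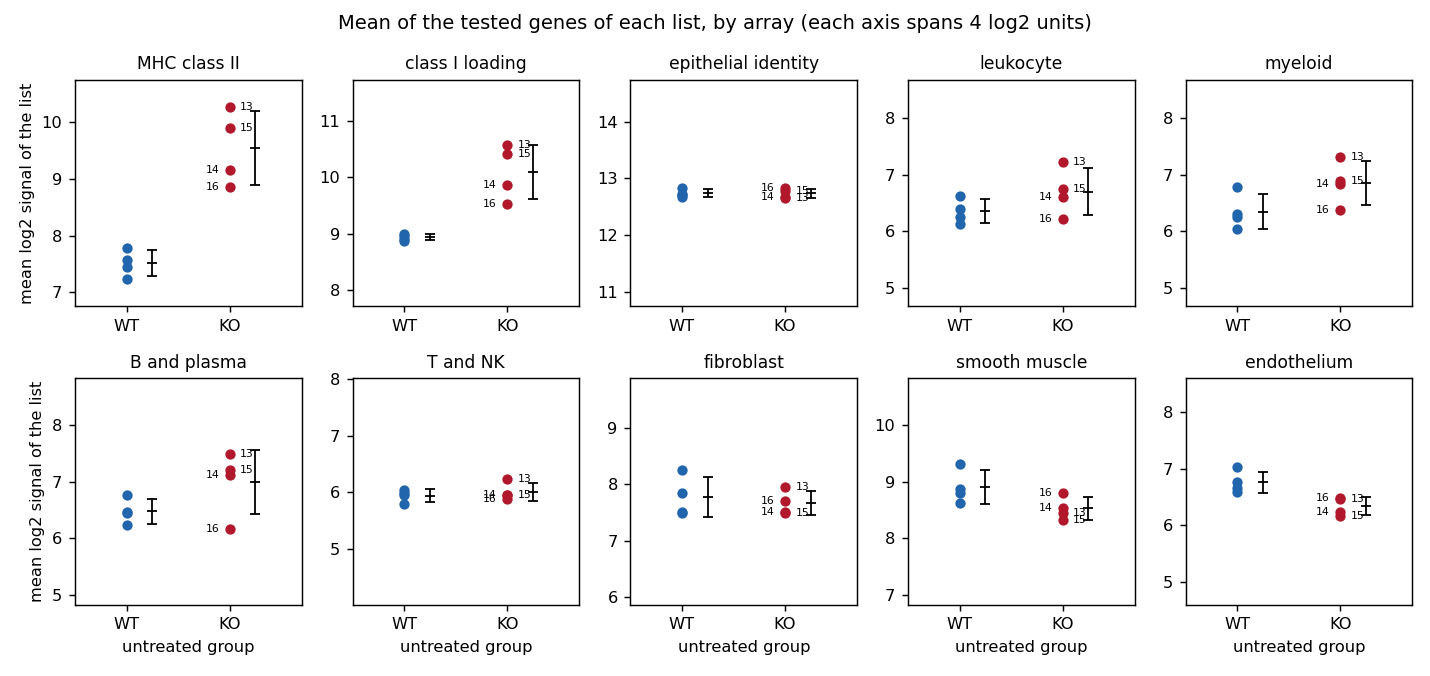
Mean log2 signal of the tested genes of 10 lists on each untreated array (points), with the group mean and SD (bars) beside; numbers mark the Naive_KO arrays. Class II means are 7.24 to 7.78 in WT and 8.86 to 10.26 in KO, the epithelial means overlap, and the leukocyte and myeloid means overlap between the groups.

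By position, 23 of 767 tested probes of chromosome 17, which holds the MHC, were called (3.00%), all of them higher and from 20 genes, against 96 of 14893 probes with a known chromosome (0.645%). The next highest shares were those of chromosome 7 (1.42%) and chromosome 18 (1.20%). On chromosome 18, where Mbd2 lies, 95 tested probes were within 10 Mb of the Mbd2 probe by the positions of the deposited table. Of these 3 were called (3.16%, against 0.656% of all tested probes), all of them probes of Cd74 at 9.81 Mb, and 9 had an adjusted p under 0.05 (9.47%, against 5.19% of all tested probes). Ppic is on the same chromosome, at 17.3 Mb. Whether DNA flanking the deleted gene takes part in these differences was not tested.

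The genotype difference with DSS was measured on other mice and shares no sample with the untreated comparison. All 88 probes called higher without DSS were also above 0 with DSS, and 54 of the 56 called lower were below 0. For comparison, 64.3% of all tested probes higher in Naive_KO were also higher in DSS_KO, and 65.2% of those lower were lower. Of the 88, 54 were called with DSS, and of the 56, 12 (over single probes per gene, 0.479% of genes were called higher and 0.427% lower with DSS). The untreated difference was the larger for 67 of the 88 and 49 of the 56, as can follow from choosing the probes in the untreated samples. The medians were 1.71 without and 1.25 with DSS for the called higher probes, and -1.33 and -0.94 for the called lower.

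No probe had a genotype difference that itself differed between untreated and DSS samples at the threshold (interaction, limma, smallest adjusted p = 0.131), while 2339 probes (10.7%) had an unadjusted p under 0.05. Among the 144 called probes, 47 had such an unadjusted p. The brightest probe of Reg3b differed by 2.99 without DSS and by 0.08 with it, where both genotypes were near the upper end of the signal range, at 14.34 ± 0.39 in DSS_WT and 14.42 ± 0.26 in DSS_KO (SD, n = 4 each). At such signals a difference can be compressed, and the dimmer probe of Reg3b differed by 2.16 without and 1.61 with DSS. The difference between the genotype effects was 1.49 for mt-Nd4l (unadjusted p = 0.000267, adjusted p = 0.177, limma), for Glul 1.21 (unadjusted p = 0.000517, adjusted p = 0.199) and for Ppic -1.06 (unadjusted p = 0.00193, adjusted p = 0.227). H2-DMb1 had 4.11 without and 3.64 with DSS.

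**Figure D5:**
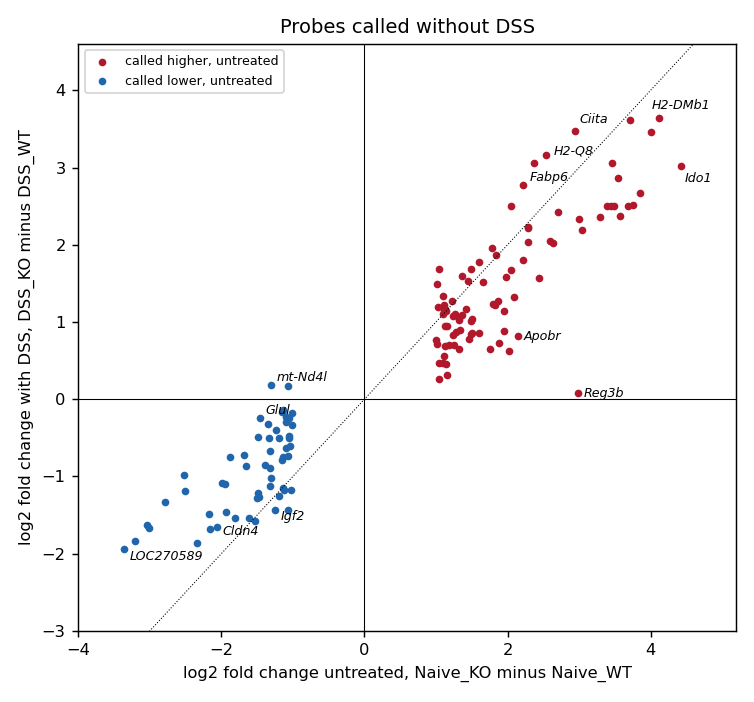
Log2 fold change without DSS (x axis, Naive_KO minus Naive_WT) against that with DSS (y axis, DSS_KO minus DSS_WT) for the 144 probes called without DSS; the dotted line marks equal changes. All 88 red points lie above 0 on the y axis, the lowest being the brightest Reg3b probe at 0.08 (its dimmer probe, not plotted, had 1.61), and 54 of the 56 blue points lie below 0.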

How the data were processed

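Messenger RNA of sorted mouse colon epithelium was hybridised to Illumina MouseWG-6 BeadChips. Per the file headers, the deposited intensity is a mean bead signal per probe and array, with neither background subtraction nor normalization, beside a deposited detection p-value from 936 negative controls. Other deposited columns of per-sample values, 72 in number, were not used. The table had 45281 probes and 18 arrays.

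Background correction with the negative controls, quantile normalization and log2 transformation were done in a single step by neqc (offset 16; limma 3.58.1, R 4.3.3). A probe was tested where at least 4 arrays detected it (p-value under 0.05), which left out 23343 probes. Arrays 4R and 5R were averaged with their namesakes. The linear model of limma had 1 mean for each of the 4 groups of the 16 samples (12 residual and 4.71 prior degrees of freedom), with Benjamini-Hochberg adjustment in each contrast. On simulated signals, with the same spread in every group, the fit recovered most of the largest changes that had been set. The number of arrays limits the precision, and the p-values rest on the spread between these samples, pooled over the 4 groups. The submitters' processing notes name lumi and limma.

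The value of a gene is that of its brightest tested probe. A fold against an undetected group is a lower bound, taken against the lowest signal of a detected probe on each array or the probe's own signal where higher. Symbols were updated with a RefSeq table (assembly GRCm38.p6; 71.4% of probes matched). The build of the deposited probe positions is not stated, so that only chromosomes and distances are given. Where a probe lies within its transcript is not given in the sources used here. Named are Mbd2, the 15 largest rises and the 15 largest falls among called genes whose groups did not overlap, the called members and the 3 brightest members of each list, and defining cell markers; 23 further called genes, and list members named beside these, were chosen after their values were seen, and some genes that these rules name are not reported here. The comparison, its lists and the rule were chosen with earlier results of these data known. Alternatives were another set of arrays, background correction, scaling, offset, filter, array weights and leaving out each array. Calculations outside limma used Python 3.11.15.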

Additional observations from a re-analysis of the deposited data

Results flagged for a closer look

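For 71 named genes with a called probe, the 4 values of each untreated group were searched for an array far from the other 3, by a gap past Dixon's critical value for 4 values. Of 142 such groups 3 had one, and about 1 in 20 is found by chance. Rsad2 was at 8.48 on Naive_KO array 16 and between 7.66 and 7.72 on the others. LOC386298 was at 5.87 on Naive_KO array 15 and between 6.52 and 6.64 on the others. Tapbp, at its brighter probe, was at 7.21 on Naive_WT array 12 and between 6.92 and 6.96 on the others.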

How the results depend on the processing

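The 144 called probes became 39 with only the 8 untreated arrays in the fit (6 residual degrees of freedom), 56 without background correction and 90 without a filter on detection. Other settings gave 96 (offset of 50) to 190 (all 18 arrays as separate replicates). Leaving out 1 untreated array gave 73 to 279 probes: 73 without Naive_WT array 10, 83 without Naive_KO array 15 and 279 without Naive_KO array 16; the cause was not tested. Over these fits without 1 array, the called lower probes ranged from 22 to 137 and the called higher from 51 to 142. The interaction stayed at 0 called probes in all 15 alternatives in which it was fitted.

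None of the 71 named genes changed sign under any of the 16 alternatives. Of the 66 that were called at their brightest probe, 14 were called under every alternative that gave a value (among them Cd74, H2-DMa, H2-DMb1, H2-DMb2, Psmb8, Irf7, Muc1, Ppic, Lpo, LOC270589 and LOC386298), and 56 under at least 50% of them. The 10 called less often were Nlrc5 (4 of 15), Igtp (5 of 16), H2-T23, Parp14 and Btnl2 (6) and H2-Q6, H2-Q7, Piwil4, Arc and Cldn4 (7). Of 37 list medians 35 changed sign or moved by over 1.5 times under at least 1 alternative. The class II median ran from 1.89 to 3.23 and stayed above the range of every other list. The median of the interferon-gamma genes ran from 0.45 to 1.17, of the type I interferon genes from 0.35 to 0.67, of the antimicrobial genes from 0.22 to 0.92 and of the myeloid genes from 0.27 to 0.75, each lowest without background correction. Without Naive_KO array 15 the class I median was 0.64, and without Naive_KO array 13 the leukocyte median was 0.07. Medians that changed sign numbered 13, all of them between -0.13 and 0.10 as reported and between -0.23 and 0.20 under the alternatives. No paired analysis was possible because the arrays of the groups carry different numbers. Probes near background, such as that of Mbd2, cannot show a difference on these arrays.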
